A study of Mus musculus with 10 samples.

Results

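The respiratory chain genes of this data set are the protein-coding rows of the gene count table that lie on the mitochondrial chromosome, or whose symbol names a subunit of complexes I to V (Nduf subunits, Sdha to Sdhd, Uqcr, Cox4 to Cox8 and Atp5 genes). The rule found 100 genes among the 55486 of the table, of which 21884 were protein coding. Of the 100, 13 were mitochondrially encoded and 87 were nuclear encoded. They were measured by RNA sequencing in 10 libraries from 5 three-dimensional gels of mouse cells kept for 7 days. Normal mammary fibroblasts (NFs) came from 8-week-old mTmG mice, which carry a membrane tdTomato reporter that Cre turns into membrane GFP. They were sorted by the surface protein CD26, and the CD26+ NFs were turned green with adenoviral Cre, so that exposure to the virus and the CD26 subset cannot be told apart. Both subsets were then mixed in equal numbers in a collagen and basement membrane gel. Gel 1 held NFs alone and gave 1 CD26- and 1 CD26+ library. Gels 2 and 3 held tumor cells alone, of the lines 13-MCB-17 and 10-SJK-221, each derived from a mammary tumor of a mouse model of invasive lobular carcinoma (ILC) in which WapCre, active in mammary epithelium, deletes floxed Cdh1. Gels 4 and 5 held both NF subsets with 13-MCB-17 and 10-SJK-221 cells, and each gave a CD26-, a CD26+ and a tumor cell library after sorting by color. The NFs were pooled from several mice before culture and NFs alone were grown in 1 gel. A difference between co-cultured NFs and NFs alone therefore cannot be told apart from a difference between that gel and the others. The spread between NF libraries is not one between mice. It mixes differences between gels, which also differ in tumor line, with differences between libraries of the same gel.

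The respiratory chain passes electrons from NADH and succinate to oxygen and stores the energy as a proton gradient, which the ATP synthase uses. Complex I (NADH dehydrogenase), complex III (cytochrome bc1), complex IV (cytochrome c oxidase) and complex V (ATP synthase) are built from subunits of both genomes, while complex II (succinate dehydrogenase) is entirely nuclear encoded. The mitochondrial genes are transcribed inside the organelle as long precursors from each strand, cut into single mRNAs and given short poly(A) tails, whereas the nuclear genes follow ordinary nuclear transcription. Several complex IV and complex I subunits exist as a common form and a second form that is restricted to certain tissues or conditions.

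The libraries held between 14142334 and 18408940 counts. Fibroblast markers were at a summed 28670 to 85050 CPM, a unit that corrects each count for the total of its library, in NF libraries and at 735 to 2323 CPM in tumor cell libraries. Within NFs the sum was 85050 and 79040 CPM alone and 28670 to 50580 CPM in co-culture, where 4 of the 10 fibroblast markers fell and 2 rose, and its part in the changes of respiratory chain genes in co-cultured NFs was not tested. The summed CPM of 10 epithelial markers was 4233 to 5577 in tumor cells, 0.807 and 1.12 in NFs alone and 121 to 326.5 in co-cultured NFs. That is 2.72% to 6.30% of the level in tumor cells of the same gel, and 9 of 9 epithelial markers tested rose in co-cultured NFs. Epcam, which defines epithelial cells, was at 0 in NFs alone, at 6.42 to 15.9 CPM in co-cultured NFs and at 335 to 432 CPM in tumor cells. In the other direction Col1a1, the main fibrillar collagen gene, was at 89.1 and 28.1 CPM in co-cultured tumor cells against 3.10 and 1.78 CPM in tumor cells alone. Dpp4, the gene for CD26, did not exceed 0.771 CPM in any library after the culture. It was at 0.281, 0.771 and 0.283 CPM in the CD26+ libraries of gels 1, 4 and 5 and at 0, 0 and 0.0576 CPM in the CD26- libraries. The order followed the subset labels in each gel, but at levels this low it is only a weak check of them. Cdh1, deleted in the tumor model, was counted at 140 to 269 CPM in tumor cells, and counts over the whole gene do not tell deleted exons from the rest.

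Parts of several mitochondrial genes also occur elsewhere in the genome, and sequences are shown to tell these parts from the others. Gene transcripts outside the mitochondrial chromosome, mostly of genes named only by Gm numbers, carry copies of parts of the mitochondrial genome. A read of 54 bases, the shorter read length that the study's methods name, could then come from either place. For each mitochondrial gene every window of 54 bases was searched letter for letter in the transcripts of all other genes. The lines below give stretches of 60 bases, 5′ to 3′ on the plus strand of chromosome MT (GRCm38). These are the first 60 bases of mt-Co2 (chrMT:7013-7072), mt-Atp6 (chrMT:7927-7986), mt-Co3 (chrMT:8607-8666), mt-Cytb (chrMT:14145-14204) and mt-Nd1 (chrMT:2751-2810), and bases 847 to 906 of mt-Nd4 (chrMT:11013-11072). Capitals mark bases that lie in a window found in another gene.
mt-Co2: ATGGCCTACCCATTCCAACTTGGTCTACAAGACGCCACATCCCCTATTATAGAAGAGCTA
mt-Atp6: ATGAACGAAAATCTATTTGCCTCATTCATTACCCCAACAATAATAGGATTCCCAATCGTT
mt-Co3: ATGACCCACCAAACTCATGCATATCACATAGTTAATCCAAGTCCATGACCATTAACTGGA
mt-Nd4: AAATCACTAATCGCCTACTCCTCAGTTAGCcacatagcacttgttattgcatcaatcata
mt-Cytb: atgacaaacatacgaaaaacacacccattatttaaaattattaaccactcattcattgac
mt-Nd1: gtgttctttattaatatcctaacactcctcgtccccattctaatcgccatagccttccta
The stretches of mt-Co2, mt-Atp6 and mt-Co3 are shared throughout, that of mt-Nd4 passes from shared to unshared after its first 30 bases, and those of mt-Cytb and mt-Nd1 are not shared.

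Over the whole genes, 100% of the windows of mt-Co2, 99.9% of mt-Co3, 99.5% of mt-Atp6, 98.8% of mt-Nd4l and 98.0% of mt-Nd3 were found in another gene. Their mean levels over the 10 libraries were 7.56, 1.43, 1.10, 0.0858 and 0.110 CPM in the same order. mt-Nd4 and mt-Co1, the largest catalytic subunit of complex IV, shared 62.1% and 49.1% of their windows and had 708 and 4893 CPM. mt-Nd2 and mt-Nd5 shared 7.72% and 6.15% and had 947 and 1137 CPM. mt-Nd1, mt-Cytb, mt-Nd6 and mt-Atp8 shared none and had 1466, 1972, 39.7 and 0.226 CPM. The 5 genes with at least 98.0% of their windows shared were under 8 CPM. mt-Co2 and mt-Co3 encode core subunits of complex IV, as mt-Co1 does. mt-Atp8, a short gene next to mt-Co2 and mt-Atp6 on the chromosome, was as low without a window found in the transcripts searched. Copies outside annotated transcripts were not searched, so it cannot be set against shared sequence. How the counting treated reads that map to several places is not given in the sources used here, and the part of shared sequence in these levels was not tested. mt-Nd6 is the only one of the 13 genes on the minus strand (chrMT:13552-14070). Exons of 42 of the 100 genes, 10 of the 13 mitochondrial ones among them, overlapped another gene, by 14 bases in the case of mt-Nd5 and mt-Nd6.

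**Figure D1:**
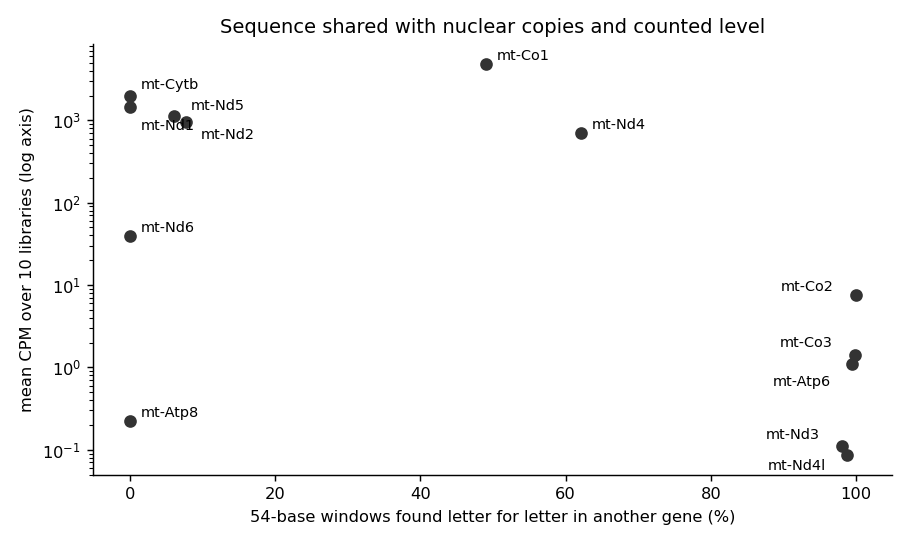
Share of the 54-base windows of each mitochondrial gene that occur in a gene outside the mitochondrial chromosome (horizontal axis, percent), against its mean CPM over 10 libraries (vertical log axis), 1 point per gene. The 5 genes at 98.0% or more lie under 8 CPM, while mt-Co1 at 49.1% has 4893 CPM.

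Mitochondrially encoded mRNA took a smaller share of the counts in co-cultured NFs than in the other libraries. It was 1.51% in CD26- NFs alone and 1.46% in CD26+ NFs alone. It was 0.510% and 0.531% in co-cultured CD26- NFs of gels 4 and 5, and 0.674% and 0.633% in co-cultured CD26+ NFs. In tumor cells it was 1.66% and 1.503% alone, and 1.24% and 1.46% in co-culture. The 4 co-cultured NF libraries lay below the other 6, with no overlap. The 87 nuclear genes varied far less, with 0.435% and 0.548% in CD26- and CD26+ NFs alone, 0.394% to 0.529% in co-cultured NFs and 0.566% to 0.633% in tumor cells, where co-cultured NFs overlapped NFs alone. The ratio of the summed mitochondrial to the summed nuclear CPM was 3.46 and 2.67 in CD26- and CD26+ NFs alone, 1.18 to 1.47 in co-cultured NFs and 2.06 to 2.64 in tumor cells. On the TPM scale, which also divides by exon length, the ratio was 4.63 and 3.53 in NFs alone, 1.46 to 1.80 in co-cultured NFs and 2.74 to 3.51 in tumor cells, in the same order. These sums are descriptions without a test. They rest almost wholly on mt-Co1, mt-Cytb, mt-Nd1, mt-Nd5, mt-Nd2 and mt-Nd4, and are shares of the reads counted, to which the mitochondrial genes with few counts add little. In bulk libraries, less RNA of a gene per cell and fewer cells that make it cannot be told apart.

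**Figure D2:**
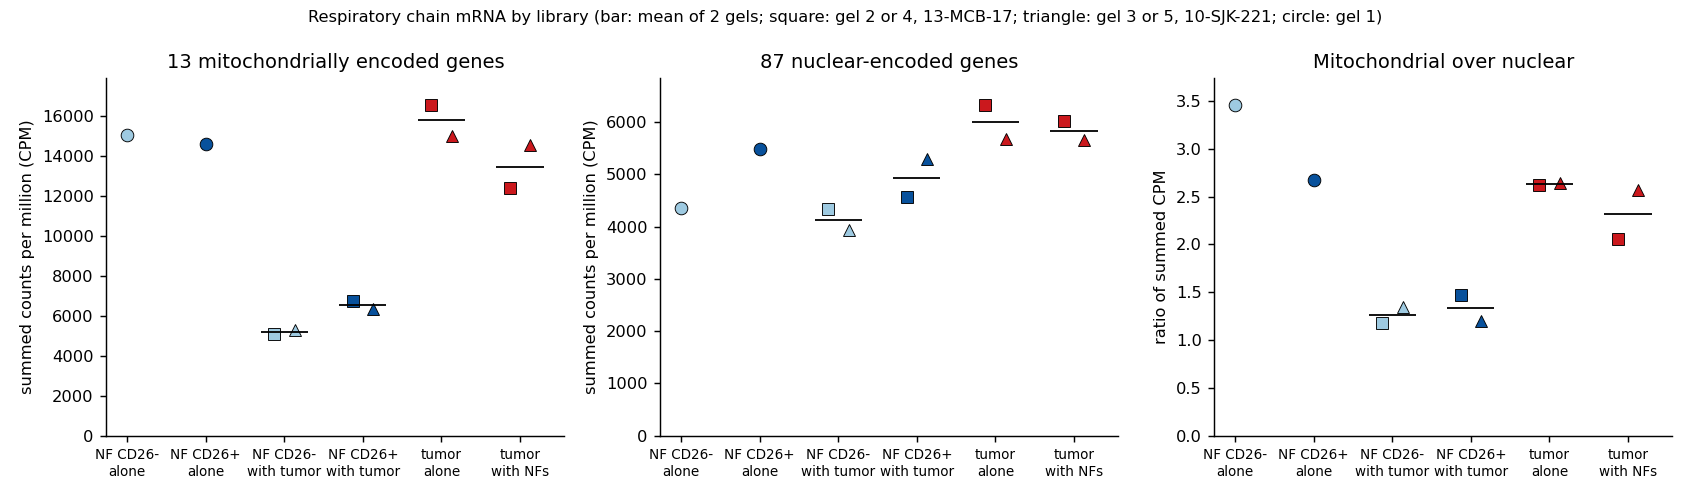
Summed CPM of the 13 mitochondrially encoded genes (left), of the 87 nuclear-encoded genes (middle) and their ratio (right) in each library, with circles for gel 1, squares for gels with 13-MCB-17, triangles for gels with 10-SJK-221 and bars for the mean of 2 gels. The co-cultured NFs are lowest on the left and right, between 5099 and 6737 CPM and between 1.18 and 1.47, and overlap NFs alone in the middle.

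By complex, the 7 mitochondrial genes of complex I summed to 6537 and 7124 CPM in NFs alone, 1933 to 2534 CPM in co-cultured NFs and 4396 to 5472 CPM in tumor cells. For complex III, whose one mitochondrial gene is mt-Cytb, the values were 3453 and 3522, 725 to 1105 and 1908 to 2605 CPM. Complex IV had 5070 and 3981, 2358 to 3432 and 6090 to 9414 CPM, almost all of it mt-Co1. Co-cultured NFs were thus lowest for each of these 3 complexes, while tumor cells exceeded NFs alone in complex IV but not in complex III. The nuclear genes of complex I summed to 1175 and 1530 CPM in NFs alone, 1117 to 1534 CPM in co-cultured NFs and 1421 to 1514 CPM in tumor cells, with overlap between all of them. Those of complex V were at 1720 and 2038, 1482 to 1886 and 2276 to 2561 CPM, highest in tumor cells.

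Among nuclear genes the highest mean TPM in each complex belonged to Ndufa4l2 in complex I (256 TPM), Sdhd, a membrane anchor of complex II (285 TPM), Uqcrh in complex III (335.5 TPM), Cox8a in complex IV (651 TPM) and Atp5a1, the alpha subunit of the ATP synthase, in complex V (588 TPM). Ndufa4l2 and its relative Ndufa4 were placed in complex I by their symbols alone, here and in the sums and counts by complex. The mean of Ndufa4l2 came almost wholly from co-cultured NFs, which is described with the isoforms. Cox8a was at 186.8 and 107 CPM in tumor cells alone, 137 and 93.9 CPM in co-cultured tumor cells and 72.5 to 111 CPM in NFs, so that the cell types overlapped. 4 nuclear genes, namely Cox7b2, Cox8b, Cox8c and a second Atp5o entry, had no count in any library. Of the 100 genes, 93 passed the filter on low counts in fits of all 10 libraries, 92 in fits of the 6 NF libraries and 88 in the fit of the 4 tumor cell libraries.

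The comparison of co-cultured NFs with NFs alone asked how fibroblasts change beside tumor cells. Of the 10 mitochondrial genes tested, 9 fell and none rose, with a median log2 fold change of -1.62. Of the 82 nuclear genes tested, 6 rose and 19 fell, with a median of -0.16. Over all 15013 genes tested, 25.9% rose and 22.9% fell (edgeR quasi-likelihood test, adjusted p under 0.05), with a median of 0.025. The nuclear share that fell, 23.2%, was near that background and the share that rose, 7.32%, was below it.

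mt-Cytb, the catalytic core of complex III (chrMT:14145-15288), was at 3453 and 3522 CPM in CD26- and CD26+ NFs alone, and in co-culture at 725 and 873 CPM for the CD26- subset against 906 and 1105 CPM for the CD26+ subset. The 4 co-cultured libraries lay below both libraries of NFs alone, and it fell by 1.91 on the log2 scale (SE 0.169, edgeR adjusted p = 1.92e-05). mt-Nd4, a proton-pumping subunit of complex I, was at 1218 and 1478 CPM alone and at 278, 303, 357 and 425 CPM in co-culture. It fell by 1.94 (SE 0.142, adjusted p = 6.31e-06), again without overlap. mt-Nd1, the complex I subunit nearest the quinone site, was at 2092 and 2437 CPM alone and between 654 and 921 CPM in co-culture. Its levels did not overlap either, and it fell by 1.54 (SE 0.147, adjusted p = 3.14e-05). mt-Nd5 and mt-Nd2, further membrane subunits of complex I, fell by 1.58 (SE 0.147) and 1.36 (SE 0.131), from 1944 and 1805 CPM and from 1245 and 1338 CPM to 528 to 696 CPM and 439 to 526 CPM.

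mt-Co1 changed least among the 9, from 5055 and 3966 CPM to 2438 and 2355 CPM for the CD26- subset and 3427 and 2684 CPM for the CD26+ subset. The co-cultured libraries lay below both others, and it fell by 0.69 (SE 0.193, adjusted p = 0.0147). This call rested on single libraries, since adjusted p was 0.275 at a log2 fold change of -0.35 without the library of CD26- NFs alone and 0.0995 at -0.62 without gel 5. The low-count genes mt-Co2, mt-Co3 and mt-Atp6 fell by 1.66 (SE 0.271), 2.13 (SE 0.485) and 2.92 (SE 0.570), and mt-Co2 went from 12.8 and 11.9 CPM to 2.61, 2.88, 4.62 and 5.94 CPM. These are the genes whose sequence lies wholly or nearly wholly in shared windows. mt-Nd6, on the minus strand, was at 37.7 and 64.6 CPM in NFs alone and at 33.7, 35.3, 50.7 and 24.5 CPM in co-culture. The groups overlapped, with a log2 fold change of -0.42 (SE 0.256, adjusted p = 0.199). mt-Atp8 had 16 counts in NFs alone and 2 in co-cultured NFs, a ratio of 0.0597 with a 95% counting interval of 0.00666 to 0.254. For mt-Cytb and mt-Nd1 the tumor cells, at 1908 to 2605 CPM and 1610 to 1931 CPM, were also above the co-cultured NFs, which were the lowest group for both genes.

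**Figure D3:**
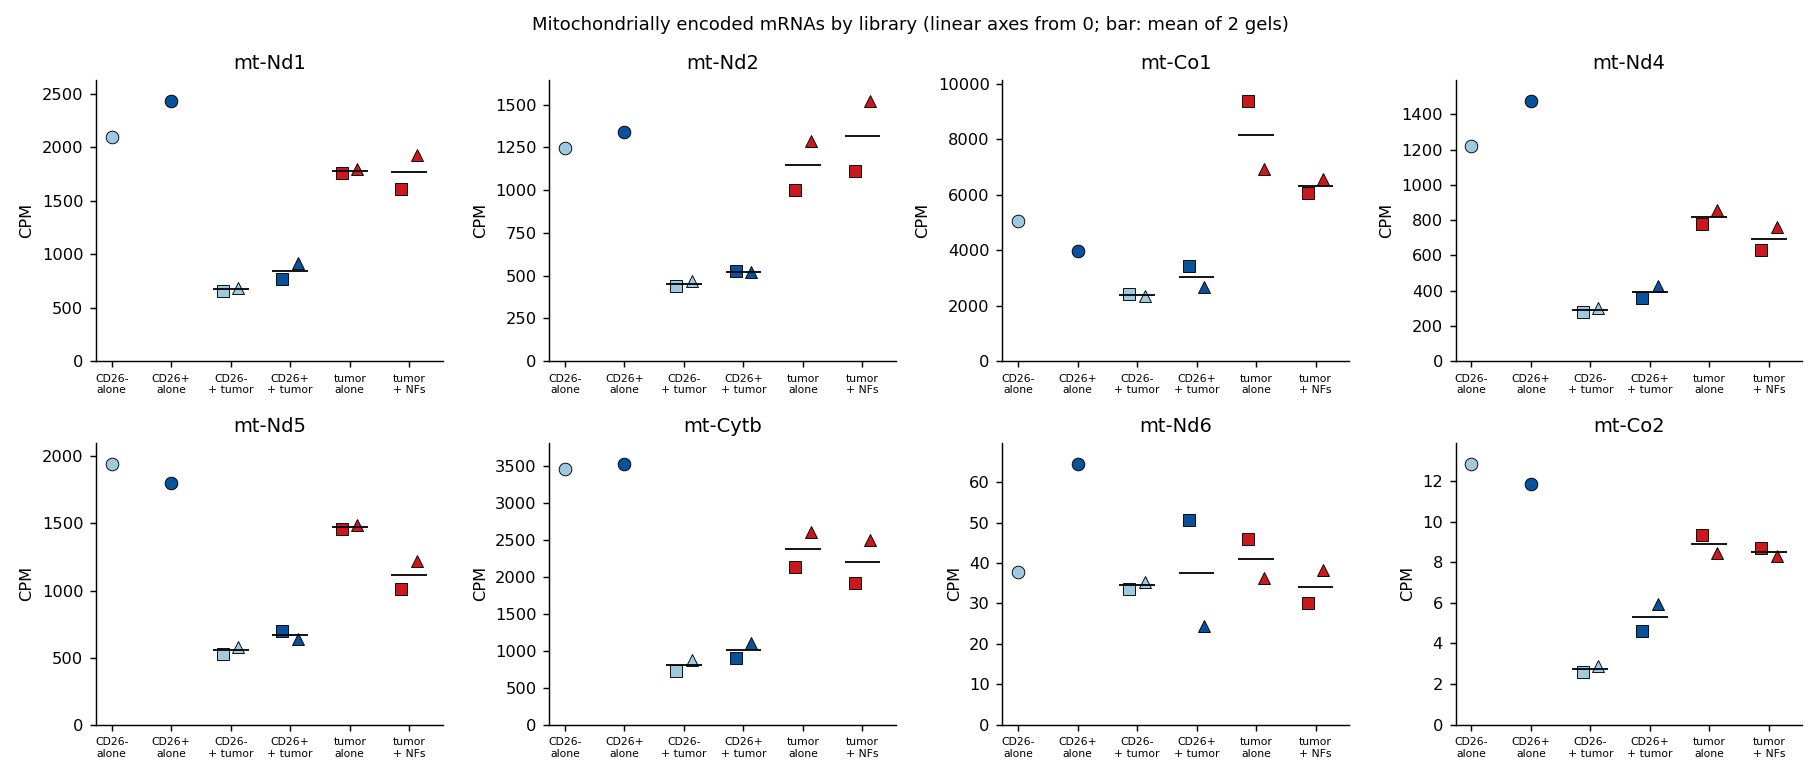
CPM of 8 mitochondrially encoded genes in each library on linear axes from 0, with circles for gel 1, squares for gels with 13-MCB-17, triangles for gels with 10-SJK-221 and bars for the mean of 2 gels. The co-cultured NFs form the lowest group for mt-Nd1, mt-Nd2, mt-Co1, mt-Nd4, mt-Nd5, mt-Cytb and mt-Co2, while the groups overlap for mt-Nd6.

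The ribosomal RNAs of the mitochondrion, which share the plus-strand precursor with 12 of the 13 genes, moved the other way. mt-Rnr2, the large subunit rRNA, was at 1201 and 1561 CPM in CD26- and CD26+ NFs alone and at 2421, 2238, 2961 and 3045 CPM in co-cultured NFs. The groups did not overlap, and it rose by 1.00 on the log2 scale (SE 0.153, adjusted p = 0.000605). mt-Rnr1, the small subunit rRNA, rose by 0.47 (SE 0.137, adjusted p = 0.0178), from 476 and 622 CPM to 615 to 823 CPM, with overlap between single libraries. The ratio of mitochondrial rRNA to mRNA was 0.111 and 0.149 in NFs alone, 0.538 to 0.616 in co-cultured NFs and 0.219 to 0.327 in tumor cells. The libraries were made from poly(A)-selected RNA, so the rRNA counted is the part that passed this selection.

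Among the nuclear genes that fell in co-cultured NFs, complex I had 10 of its 38, complex V 4 of 17, complexes III and IV 2 each of 8 and 15, and complex II 1 of 4. Ndufb2, an accessory subunit of complex I, was at 3.97 and 4.91 CPM in NFs alone and at 1.82, 1.04, 2.38 and 1.63 CPM in co-culture. The groups did not overlap, and it fell by 1.34 (SE 0.336, adjusted p = 0.00892), although adjusted p was 0.0808 without gel 5 and 0.0573 without CD26- NFs alone. Atp5k, the e subunit of the ATP synthase, was at 26.9 and 32.8 CPM alone and between 15.0 and 17.8 CPM in co-culture, without overlap, and fell by 0.87 (SE 0.150, adjusted p = 0.00117). Ndufa3, a small membrane subunit of complex I, was at 39.9 and 48.0 CPM alone and at 21.9 to 26.9 CPM in co-culture, and fell by 0.81 (SE 0.144, adjusted p = 0.00139). Sdha, the flavoprotein of complex II, fell by 0.48 (SE 0.117, adjusted p = 0.00786), from 178 and 187 CPM to 122 to 132 CPM. Each of these 3 was lower in the 4 co-cultured libraries than in both others, as were 27.8% of all genes tested and 20.7% of the nuclear respiratory chain genes. Of the 6 that rose, 3 were second isoforms, described next, and the others were Ndufa6 by 0.66, Uqcrh by 0.40 and Uqcrc2 by 0.37, which are ordinary subunits of complexes I and III. The count of 34 genes changed in either genome was 20 without CD26+ NFs alone and 21 without gel 5.

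The second isoforms Cox4i2, Ndufa4l2 and Cox7a1 gave the 3 highest fold changes among nuclear genes in co-cultured NFs. Cox4i2 (chr2:152754173-152765037) encodes the alternative form of a regulatory subunit of complex IV and is known as a hypoxia-responsive gene. It was at 0.186 and 0.421 CPM in CD26- and CD26+ NFs alone and at 36.1, 31.8, 25.4 and 36.5 CPM in co-culture. The groups were far apart, with 9 counts in NFs alone and 2061 in co-culture, a 109-fold difference with a 95% counting interval of 57.5 to 239 (log2 fold change 6.78, SE 0.352, adjusted p = 9e-07). In tumor cells 1 count was found in the 4 libraries, and co-cultured tumor cells, with 0 counts, were at least 190-fold lower than co-cultured NFs at a floor of 3 counts per library. Its common partner Cox4i1 was at 151 and 210 CPM in NFs alone against 119 to 193 CPM in co-culture, which overlapped (log2 fold change -0.24, SE 0.141, adjusted p = 0.185).

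Ndufa4l2 (chr10:127514967-127517154), a relative of Ndufa4 that is likewise known to respond to hypoxia, was at 13.4 and 13.1 CPM in NFs alone and at 179, 190.5, 134 and 190 CPM in co-culture. The groups did not overlap, and it rose by 3.75 (SE 0.205, adjusted p = 1.2e-06). Tumor cells had 4 counts in all, 1 of them in tumor cells alone. Ndufa4, counted here with complex I by its symbol but now known as a subunit of complex IV, moved the opposite way, from 60.1 and 81.8 CPM to 37.9, 33.8, 44.8 and 51.8 CPM, without overlap, and fell by 0.71 (SE 0.126, adjusted p = 0.00144). Cox7a1, the form of a complex IV subunit known from heart and muscle, was at 0.186 and 0.351 CPM alone and at 1.15, 1.38, 1.35 and 3.04 CPM in co-culture. It rose by 2.70 (SE 0.615, adjusted p = 0.0054), but adjusted p was 0.0584 without gel 5, whose CD26+ library was the highest. Cox7a2, its common partner, had a log2 fold change of 0.16 (SE 0.132, adjusted p = 0.336). Summed adipocyte markers were at 1.68 and 6.60 CPM in NFs alone and at most 0.806 CPM in co-cultured NFs, where 1 of 2 tested fell, and muscle markers were at 5.15 and 6.74 CPM alone and 7.08 to 15.99 CPM in co-culture, where 2 of 3 tested rose. Immune markers were at 12.1 and 16.6 CPM alone and 33.2 to 66.9 CPM in co-culture, with 2 of 4 higher and 1 lower, and endothelial markers at 4.35 and 9.76 CPM alone and 8.06 to 24.4 CPM in co-culture, with 2 of 4 higher and 1 lower. The part of transcripts of these cell types in the isoform genes was not tested. Cox6b2 was at 7.70 and 29.3 CPM in NFs alone against 15.2 to 18.1 CPM in co-culture, so that the 2 libraries of NFs alone enclosed the others. Of the 16 isoform genes tested, 3 rose and 3 fell (18.8% each, beside 25.9% and 22.9% of all genes), the latter being Ndufa4, Atp5g1 and Cox7b. Atp5g1, one of 3 genes for the c subunit of the ATP synthase, fell by 0.62 (SE 0.126), while Atp5g2 and Atp5g3 had log2 fold changes of 0.12 (adjusted p = 0.463) and -0.34 (adjusted p = 0.0578).

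**Figure D4:**
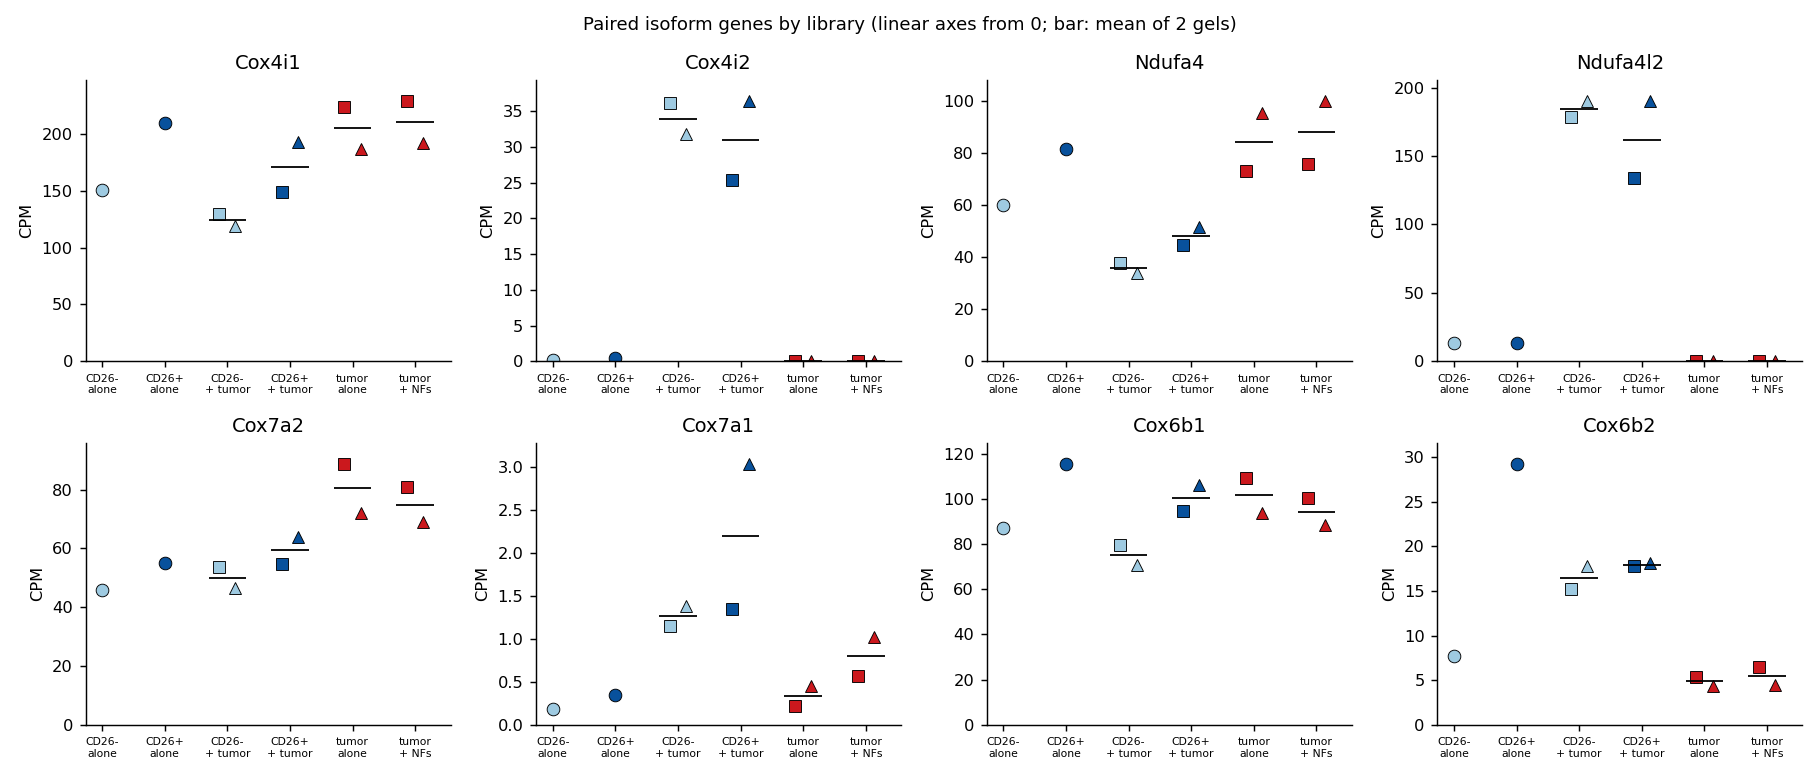
CPM of 4 pairs of isoform genes in each library on linear axes from 0, common form first, with circles for gel 1, squares for gels with 13-MCB-17, triangles for gels with 10-SJK-221 and bars for the mean of 2 gels. Cox4i2 and Ndufa4l2 are high in the 4 co-cultured NF libraries, at 25.4 to 36.5 and 134 to 190.5 CPM, and near 0 in tumor cells.

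The comparison of co-cultured tumor cells with tumor cells alone, within line, asked how tumor cells change beside fibroblasts. Over 13197 genes tested, 10.8% rose and 11.5% fell. Of 78 nuclear respiratory chain genes tested, 1 rose and 3 fell (1.28% and 3.85%), with a median log2 fold change of -0.041. None of the 10 mitochondrial genes tested passed the threshold by edgeR, with a median of -0.20, and 1 of them had an unadjusted p under 0.05, beside 4684 of all 13197 genes, a larger share. That gene, mt-Nd5, was at 1458 and 1487 CPM in 13-MCB-17 and 10-SJK-221 cells alone and at 1010 and 1220 CPM in co-culture (log2 fold change -0.43, SE 0.136, adjusted p = 0.053). mt-Cytb was at 2127 and 2605 CPM alone and 1908 and 2495 CPM in co-culture, a smaller difference than that between the lines. The groups of mt-Nd5 were apart and those of mt-Cytb overlapped. Sdhb, the iron-sulfur subunit of complex II, was at 83.9 and 66.5 CPM alone and 51.6 and 52.3 CPM in co-culture, and fell by 0.55 (SE 0.119, adjusted p = 0.0125). Ndufb3 of complex I and Uqcrfs1, the Rieske protein of complex III, fell by 0.55 (SE 0.153) and 0.34 (SE 0.099), and Ndufv3 of complex I rose by 0.60 (SE 0.160). In these tumor cells 5 of 7 fibroblast markers rose and 4 of 10 epithelial markers fell, and their part in the 4 calls was not tested. The 4 calls were lost without the line term and in the fit of all 10 libraries, and DESeq2 called 1 gene. Single libraries were left out only in this fit of all 10 libraries, which held no call to begin with. Whether the 4 calls rested on 1 library was therefore not tested. By RLE scaling or DESeq2 no called gene rose.

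The difference between the responses of the cell types was tested as an interaction. Of 11 mitochondrial genes tested, 6 had a higher change with co-culture in tumor cells than in NFs and none a lower one, with a median of 1.56. Of 82 nuclear genes, 2 were higher and 2 lower, with a median of 0.14. Over 17048 genes tested, 8.15% were higher and 12% lower, with a median of -0.056. The 6 were mt-Cytb with a difference of 1.79 on the log2 scale (SE 0.290, adjusted p = 0.00437), mt-Nd4 with 1.69 (SE 0.236), mt-Co2 with 1.56 (SE 0.329), mt-Nd2 with 1.54 (SE 0.257), mt-Nd1 with 1.51 (SE 0.241) and mt-Nd5 with 1.15 (SE 0.220). Each of the 6 fell in NFs and had no called change in tumor cells. mt-Co3 and mt-Atp6, at low counts, had differences of 2.06 (adjusted p = 0.0587) and 2.47 (adjusted p = 0.0585). mt-Co1 had a difference of 0.29 (SE 0.288, adjusted p = 0.543) and mt-Nd6 of 0.12 (SE 0.400, adjusted p = 0.923). mt-Rnr2 differed the other way, at -0.91 (SE 0.241, adjusted p = 0.0317). The nuclear genes were Ndufa3 at 0.98, Atp5k at 0.85, Cox7a2l, a supercomplex factor, at -0.59 and Cox4i2, whose fitted value is no measure of size because tumor cells were at or under the floor in both cultures. The count of 10 genes was 6 without co-cultured CD26- NFs of gel 4 or without co-cultured tumor cells of gel 4.

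**Figure D5:**
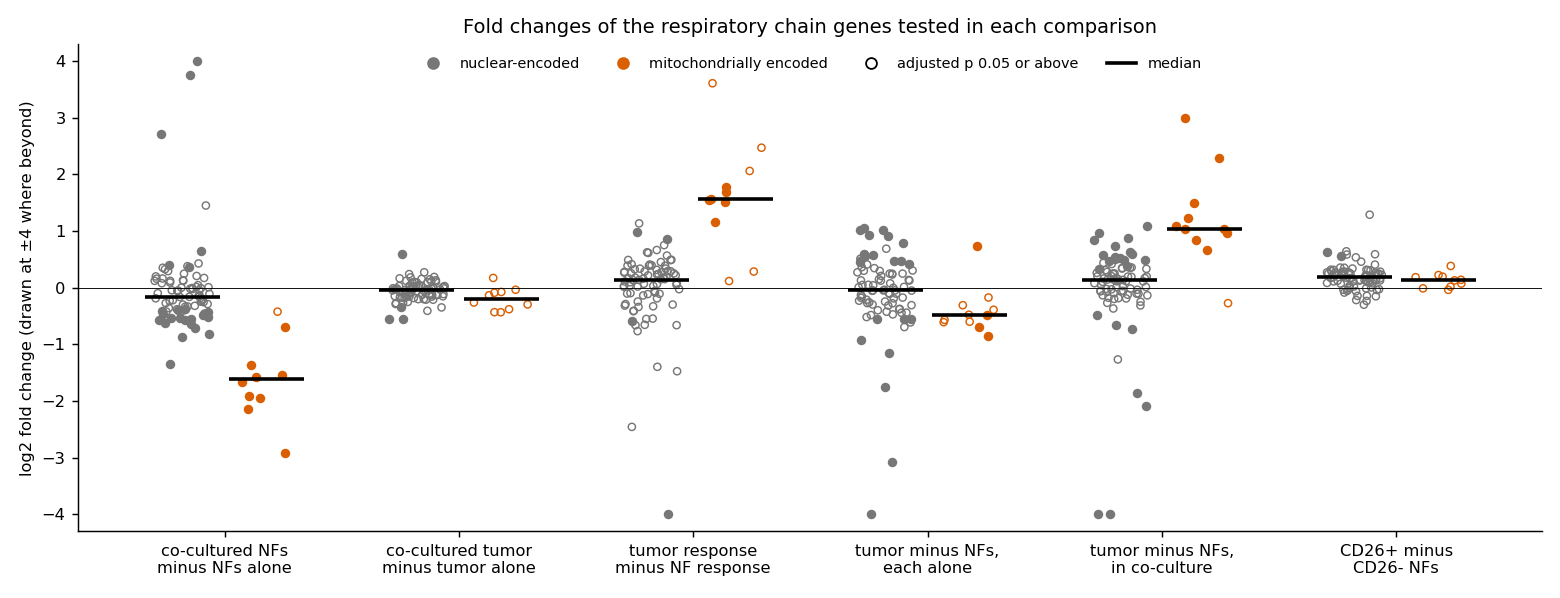
Log2 fold change of each respiratory chain gene tested in the 6 comparisons (vertical axis, values beyond 4 drawn at 4), gray for nuclear-encoded and orange for mitochondrially encoded genes, filled where the edgeR adjusted p was under 0.05, with black bars for medians. The mitochondrial median is -1.62 for co-cultured NFs against NFs alone, -0.20 for the tumor cells and 1.03 for tumor cells against NFs in co-culture, while the nuclear medians lie between -0.16 and 0.19.

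Tumor cells and NFs were compared separately in the 2 cultures, which differ in both arms. Alone, over 17048 genes tested, 27.1% were higher and 28.4% lower in tumor cells. Of 82 nuclear genes 13 were higher and 8 lower (15.9% and 9.76%), and of 11 mitochondrial genes 1 was higher and 3 lower, with medians of -0.042 and -0.48. Of the 25 genes called in the main fit 56% were higher, against 45% by DESeq2, so the balance of directions depends on the method. mt-Co1 was at 9403 and 6948 CPM in tumor cells alone against 5055 and 3966 CPM in NFs alone, without overlap, a log2 fold change of 0.74 (SE 0.219, adjusted p = 0.0197). Adjusted p was 0.197 without CD26+ NFs alone and 0.123 without 13-MCB-17 cells alone. mt-Nd4 was lower in tumor cells, at 776 and 856 CPM against 1218 and 1478 CPM, by a log2 fold change of -0.85 (SE 0.180, adjusted p = 0.00432). mt-Cytb at -0.70 (SE 0.221) and mt-Nd5 at -0.48 (SE 0.167) were also lower, and each missed the threshold without CD26- NFs alone or without 13-MCB-17 cells alone, mt-Nd5 also without 10-SJK-221 cells alone.

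In the nuclear genome, Ndufa6 of complex I was at 73.4 and 65.0 CPM in tumor cells alone against 27.3 and 34.5 CPM in NFs alone, a log2 fold change of 1.05 (SE 0.193, adjusted p = 0.00213). Uqcrc2, a core protein of complex III, was at 169 and 157.5 CPM against 73.8 and 72.8 CPM, with 1.03 (SE 0.152, adjusted p = 0.000648). Uqcrfs1 was at 73.7 and 67.4 CPM against 27.3 and 37.5 CPM, with 1.01 (SE 0.155, adjusted p = 0.000766). All 3 were higher in both tumor libraries than in both NF libraries, as were 39.9% of all genes tested and 31.7% of the nuclear respiratory chain genes. Ndufa4l2 had 1 count in tumor cells and 403 in NFs, a 453-fold lower level with a 95% counting interval of 80.9 to 17940. Ndufa3 was lower in tumor cells at -1.16 (SE 0.212), and Cox6b2, known as a testis form, was at 5.38 and 4.33 CPM against 7.70 and 29.3 CPM. Its log2 fold change was -1.75 (SE 0.265), and -0.89 with adjusted p = 0.0508 without CD26+ NFs alone. The count of 25 was 14 without 13-MCB-17 cells alone and 16 without CD26+ NFs alone.

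In co-culture, over 17048 genes tested, 24.2% were higher and 27.7% lower in tumor cells than in NFs of the same gels. Of 11 mitochondrial genes 10 were higher and none lower, with a median of 1.03, and of 82 nuclear genes 16 were higher and 7 lower (19.5% and 8.54%), with a median of 0.13. With a single library left out, the nuclear median was 0.040 to 0.192. mt-Cytb was at 1908 and 2495 CPM in tumor cells against 725 to 1105 CPM in NFs, with a log2 fold change of 1.09 (SE 0.185, adjusted p = 0.00141). mt-Nd2 was at 1114 and 1523 CPM against 439 to 526 CPM, with 1.23 (SE 0.164, adjusted p = 0.000356). mt-Nd1 at 1.03 (SE 0.154), mt-Co1 at 1.03 (SE 0.183), mt-Nd4 at 0.84 (SE 0.151) and mt-Nd5 at 0.67 (SE 0.142) were likewise above the NF range in both tumor libraries. Adjusted p of mt-Nd5 was 0.0515 without co-cultured 10-SJK-221 cells. The calls of mt-Atp8, with 7 counts against 2, and of mt-Co3 were lost under several alternatives, mt-Co3 with adjusted p = 0.0833 by DESeq2, 0.0706 without co-cultured CD26- NFs of gel 4 and 0.0792 and 0.0647 without co-cultured 13-MCB-17 or 10-SJK-221 cells. mt-Nd6 was at 30.1 and 38.2 CPM in tumor cells and 24.5 to 50.7 CPM in NFs, which overlapped (-0.27, SE 0.265, adjusted p = 0.416).

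Of the nuclear genes, Ndufs8, an iron-sulfur subunit of complex I, was at 46.2 and 41.6 CPM in co-cultured tumor cells and 13.4 to 25.2 CPM in co-cultured NFs, with a log2 fold change of 0.97 (SE 0.169, adjusted p = 0.00163). Ndufa4 was at 76.0 and 100.2 CPM against 33.8 to 51.8 CPM, with 0.88 (SE 0.159, adjusted p = 0.00203). Ndufb2 was at 3.85 and 4.39 CPM against 1.04 to 2.38 CPM, with 1.09 (SE 0.295, adjusted p = 0.0146), and adjusted p was 0.0774 without 10-SJK-221 cells and 0.0552 by DESeq2. The groups of these 3 did not overlap, with tumor cells the higher ones, which held for 36.6% of all genes tested and 43.9% of the nuclear respiratory chain genes. Cox6b2 was lower in tumor cells at -1.86 (SE 0.241), and Ndufa4l2 had 3 counts against 11031, a 2036-fold lower level with a 95% counting interval of 697 to 9875. Atp5a1 was at 652 and 610 CPM against 365 to 421 CPM, with 0.50 (SE 0.134, adjusted p = 0.0143). By complex, 9 of 38 nuclear genes of complex I were higher and 2 lower, 3 of 17 of complex V were higher, and 3 of 15 of complex IV were higher and 4 lower, the latter being Cox4i2, Cox6a1, Cox6a2 and Cox6b2, each an isoform gene. The count of 33 was 18 without co-cultured 13-MCB-17 cells.

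The CD26+ and CD26- NFs were compared over 3 gels, in which each gel gave 1 library of each. Over 15013 genes tested, 3.93% were higher and 3.6% lower in CD26+ NFs. Of 82 nuclear respiratory chain genes 2 were higher and none lower (2.44% higher), and 13 had an unadjusted p under 0.05, beside 3752 of all 15013 genes, a larger share. None of the 10 mitochondrial genes passed the threshold by edgeR or had an unadjusted p under 0.05. Ndufa13, also called GRIM-19, a subunit needed to assemble complex I (chr8:69894180-69902558), was at 73.1 CPM in the CD26+ subset of gel 1, 55.1 CPM in gel 4 and 65.55 CPM in gel 5, against 46.3, 36.2 and 30.4 CPM in the CD26- subset. CD26+ libraries were the higher ones in each gel, without overlap, at a log2 fold change of 0.64 (SE 0.131, adjusted p = 0.0236). 30% of its exon length overlaps Tssk6 on the other strand. Cox6a1, the common form of a complex IV subunit, was at 115, 91.0 and 107 CPM in the CD26+ subset against 66.6, 70.4 and 54.1 CPM in the CD26- subset, also without overlap, with 0.56 (SE 0.134, adjusted p = 0.0377). Of all genes tested, 11.9% were higher in each CD26+ library than in each CD26- library, as were 30 of 82 nuclear (36.6%) and 0 of 10 mitochondrial respiratory chain genes. These shares are of raw CPM. Neither gene passed the threshold without gel 5, where adjusted p was 0.326 and 0.428, and the count was 1 without gel 1 and 7 without gel 4. Marker sums differed between the subsets as well. Epithelial markers were at 1.12, 178 and 326.5 CPM in the CD26+ subset of gels 1, 4 and 5 against 0.807, 121 and 148 CPM in the CD26- subset, and 1 of 9 tested was higher. Endothelial markers were at 9.76, 24.4 and 14.85 CPM against 4.35, 10.1 and 8.06 CPM, with 1 of 4 higher, and 2 of 10 fibroblast markers were lower. The part of these markers in the calls was not tested.

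Raw CPM leaned toward the CD26+ subset beyond the respiratory chain genes. Of the 12674 genes tested that had reads in every library, the share with a higher CPM in CD26+ NFs was 60.2% in gel 1, 65.9% in gel 4 and 65.1% in gel 5, with median ratios of 1.09, 1.10 and 1.14. For the nuclear respiratory chain genes it was 77 of 80 in gel 1 (96.2%, median ratio 1.305), 60 of 80 in gel 4 (75%, 1.07) and 79 of 80 in gel 5 (98.8%, 1.41). The median ratio was above that of all genes in gels 1 and 5 and below it in gel 4. With edgeR's scaling the medians on the log2 scale were 0.26, -0.087 and 0.32, so that the direction in gel 4 depended on the scaling. The median log2 fold change over gels was 0.19 for nuclear genes and 0.13 for mitochondrial genes, against 0.004 over all genes tested. With a single gel left out, the nuclear median was 0.109 to 0.306. The mitochondrial genes had medians of -0.058, 0.21 and 0.090 in the 3 gels.

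The promoters of the nuclear genes were searched for letters known to bind factors of mitochondrial gene control. RefSeq promoters of GRCm38.p6, from 250 bases before to 50 after the start, were found for 70 of the 87 entries, which are 69 genes. The letters of nuclear respiratory factor 1 (NRF1), which are GCGCA, any base and GCGC on either strand, were in 24.6% of them (17 of 69) against 5.19% of all 27025 genes with a promoter. AAGATGGC of YY1 was in 14.5% against 3.19%, and ACTTCCGG of ETS factors in 7.25% against 4.31%. Any of these 3 was in 43.5% against 11.7%. ACGTG, the core of the hypoxia response element, was in 26.1% against 21.8%. No promoter was listed for Cox4i2 and Ndufa4l2. The promoters of Cox6a1, which was higher in CD26+ NFs, and Cox7a1, which rose in co-cultured NFs, are printed as members of these 2 kinds (chr5:115348909-115349208, minus strand, and chr7:30183921-30184220, plus strand), 5′ to 3′. Capitals mark matches, the NRF1 letters in Cox6a1 and ACGTG on the other strand in Cox7a1.
Cox6a1: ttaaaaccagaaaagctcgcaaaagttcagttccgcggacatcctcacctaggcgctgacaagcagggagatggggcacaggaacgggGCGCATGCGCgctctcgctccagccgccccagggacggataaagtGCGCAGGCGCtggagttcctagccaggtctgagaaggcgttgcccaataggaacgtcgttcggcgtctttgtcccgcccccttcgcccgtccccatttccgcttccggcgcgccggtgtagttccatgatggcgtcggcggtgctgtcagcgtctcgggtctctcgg
Cox7a1: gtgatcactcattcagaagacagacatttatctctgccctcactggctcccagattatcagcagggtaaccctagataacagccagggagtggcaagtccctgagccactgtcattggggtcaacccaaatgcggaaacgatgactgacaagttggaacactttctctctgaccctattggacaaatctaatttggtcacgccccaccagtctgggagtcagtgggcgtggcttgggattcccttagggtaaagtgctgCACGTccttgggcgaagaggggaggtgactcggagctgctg
Cox6a1 held 2 NRF1 matches before its start and Cox7a1 held 1 ACGTG match just after it, and neither held the others.

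Genes around the respiratory chain were described from 6 further lists, read beside the same backgrounds. In co-cultured NFs the proteins of the mitochondrial ribosome, which translates the 13 mitochondrial mRNAs, fell in 23 (29.9%) of 77 and rose in 1 (median -0.27), with Mrpl54 at -0.94 (SE 0.175) and Mrpl36 at -0.94 (SE 0.192) lowest and Mrps10 at 0.54 the one that rose. Of 20 genes of the citric acid cycle and pyruvate entry 9 (45%) fell and 1 rose, beside 22.9% and 25.9% of all genes. Pdk4, a kinase that shuts off pyruvate dehydrogenase, was at 62.8 and 23.5 CPM in NFs alone against 2.18, 2.30, 10.1 and 4.88 CPM in co-culture, without overlap, and fell by 3.29 (SE 0.565, adjusted p = 0.00116). Pdk1, a kinase of the same enzyme that is known to respond to hypoxia, was at 36.7 and 27.5 CPM alone and 99.9, 141.5, 89.9 and 121 CPM in co-culture, and rose by 1.88 (SE 0.210, adjusted p = 8.17e-05). These kinases act on the same target and moved in opposite directions.

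The counts that follow for co-cultured NFs stand beside 25.9% of all genes tested that rose and 22.9% that fell. Of 30 tested genes that maintain mitochondrial DNA and RNA, 6 rose and 8 fell. Mterf4, which acts with a methyltransferase on mitochondrial rRNA, was at 20.2 and 26.1 CPM alone and 5.51 to 9.83 CPM in co-culture, and fell by 1.69 (SE 0.199, adjusted p = 0.000112). Mterf2 fell by 1.36, while Polg2, the accessory subunit of the mitochondrial DNA polymerase, and Mgme1, a mitochondrial exonuclease, rose by 1.16 and 1.19. Of 10 regulators of mitochondrial biogenesis 3 rose and none fell, with Ppard at 0.73 and Gabpb1 at 0.63. Assembly factors rose in 3 and fell in 8 of 47, and of 9 carriers and subunits outside the rule 3 rose and 1 fell. Higd1a rose by 1.32 and Cycs, cytochrome c, by 0.71, whereas Etfb, an electron transfer flavoprotein, fell by 1.42.

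In CD26+ against CD26- NFs 3.93% of all genes tested were higher and 3.6% lower. Of 30 maintenance genes 1 was higher, namely Polrmt, the mitochondrial RNA polymerase, at 29.97, 18.9 and 17.8 CPM against 15.1, 10.2 and 7.88 CPM (0.86, SE 0.152, adjusted p = 0.0133). Its levels were higher in CD26+ NFs in each gel. Of 47 assembly factors 1 was higher and 1 lower, and of the regulators, the citric acid cycle, the mitochondrial ribosome and the carriers none was called by edgeR, with 4 of 10, 5 of 20, 10 of 77 and 2 of 9 at an unadjusted p under 0.05, beside 3752 of all 15013 genes. In co-cultured against single-cultured tumor cells, 10.8% of all genes tested rose and 11.5% fell. Mitochondrial ribosomal proteins fell in 2 of 77 there, assembly factors fell in 3 of 46, and Nrf1 and Ppard fell among 8 regulators, by 0.49 and 0.43. 1 of 30 maintenance genes rose and 1 fell, 3 of 19 citric acid cycle genes rose and 2 fell, and none of 9 carriers was called by edgeR (1 at an unadjusted p under 0.05, beside 4684 of all 13197 genes). Pdk1 rose there too, by 0.94 (SE 0.216, adjusted p = 0.0163).

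Between the cell types alone, where 27.1% of all genes tested were higher and 28.4% lower in tumor cells, tumor cells were higher in 5 (50%) and lower in 1 (10%) of 10 regulators. They were higher in 10 (13%) and lower in 12 (15.6%) of 77 mitochondrial ribosomal proteins, higher in 6 and lower in 9 of 47 assembly factors, higher in 3 and lower in 4 of 31 maintenance genes, higher in 3 and lower in 2 of 20 citric acid cycle genes and higher in 3 and lower in 2 of 9 carriers. Ppargc1a, a coactivator of mitochondrial biogenesis, was at 0 and 0.127 CPM in tumor cells alone against 1.24 and 4.84 CPM in NFs alone. Cs, citrate synthase, was at 453 and 435 CPM against 183 and 204 CPM, with a log2 fold change of 1.07 (SE 0.147, adjusted p = 0.000409). In co-culture, where 24.2% of all genes tested were higher and 27.7% lower, tumor cells were higher in 14 (18.2%) and lower in 3 (3.9%) of 77 mitochondrial ribosomal proteins and higher in 8 (40%) and lower in 2 (10%) of 20 citric acid cycle genes. They were higher in 8 and lower in 8 of 47 assembly factors, higher in 4 and lower in 2 of 31 maintenance genes, higher in 3 and lower in 2 of 10 regulators and higher in 1 of 9 carriers. Lrpprc, which stabilizes mitochondrial mRNAs, was at 63.4 and 76.5 CPM in co-cultured tumor cells and 28.7 to 35.3 CPM in co-cultured NFs, with 0.92 (SE 0.125, adjusted p = 0.0004). In the interaction, Pnpt1, a mitochondrial RNA-processing exonuclease, had a difference of 1.57 (SE 0.284, adjusted p = 0.00693) and Mterf4 of 1.27 (SE 0.359, adjusted p = 0.0406), among 3 higher and 2 lower of 31 maintenance genes. None of 47 assembly factors differed by edgeR, with 4 at an unadjusted p under 0.05, beside 5939 of all 17048 genes, a larger share. Of the regulators 2 of 10 had a lower change in tumor cells, of the citric acid cycle 1 of 20 a higher one, of the mitochondrial ribosome 1 of 77 a higher and 2 a lower one, and of the carriers 1 of 9 a higher and 1 a lower one.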

How the data were processed

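Raw counts per gene were deposited by the authors, as whole numbers per library. HISAT2 2.2.1 and the genome build GRCm38 are named in the submitters' processing notes. The counting program, its annotation and its use of strand are not given in the sources used here. Libraries were poly(A)-selected and stranded. The tumor model carries a further floxed allele that is not reported here. CPM is a count scaled to the total of its library, and TPM divides counts by exon length. Of the gene IDs, 99.53% were found in GENCODE M21, and 99.42% had the same position there. The 1 row without a gene ID held 0 counts and was left out.

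Genes were tested with edgeR 4.0.16 (R 4.3.3, limma 3.58.1) by the quasi-likelihood F test, with TMM scaling, the filterByExpr filter and Benjamini-Hochberg adjustment over all genes tested (threshold 0.05). Tumor cells against NFs and the interaction used all 10 libraries in 6 groups without a block. For comparisons among NFs the fit held the 6 libraries of these cells, with terms for culture and for subset, and the comparison of tumor cells across cultures used 4 libraries with line and culture as terms. Scripts were tested on simulated data. Alternatives were RLE scaling, no filter, DESeq2 1.42.0 with and without an absolute log2 fold change above 2, library sizes without mitochondrial genes, gel as a block, and leaving out each library or gel. Counting intervals and floors (3 counts) cover counting error only. No source says that libraries of a group came from separate mice. The p-values measure a spread between libraries that mixes gel and tumor line. Both libraries of NFs alone came from gel 1, so that arm held no spread between gels. The co-cultured NF libraries of the same gel were fitted as separate replicates.

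The members and lists were chosen with earlier results of these data known. Genes named were the mitochondrial members, for each comparison up to 3 highest and 3 lowest nuclear members called with a mean of at least 1 CPM, the isoform genes, the nuclear member with the highest TPM of each complex, and up to 4 called genes of each list, the 2 highest and 2 lowest. Sdha, Atp5a1 in co-culture, Cox7b and the genes named to complete a count of 5 or fewer were chosen after their values were seen. Libraries of the same gel are paired by the labels. Deviations from group means correlated at 0.119, 0.118 and 0.0706 between libraries of the same gel over 17048 genes.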

Additional observations from a re-analysis of the deposited data

Results flagged for a closer look

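The change with co-culture differed between tumor cells and NFs for 10 respiratory chain genes, by the edgeR interaction test with adjustment over all genes. The values are the change in tumor cells minus the change in NFs on the log2 scale. They were 1.785 for mt-Cytb, 1.690 for mt-Nd4, 1.560 for mt-Co2, 1.541 for mt-Nd2, 1.507 for mt-Nd1 and 1.152 for mt-Nd5. These 6 mitochondrial genes kept an adjusted p under 0.05 without any 1 of the 10 libraries. The nuclear values were 0.981 for Ndufa3, 0.854 for Atp5k, -0.585 for Cox7a2l and -9.069 for Cox4i2. Each of these 4 lost its call without several single libraries, and Cox4i2 was at or under the floor of 3 counts per library in tumor cells of both cultures, so that its value is no measure of size.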

How the results depend on the processing

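The libraries of NFs alone came from 1 gel, and no group had more than 2 gels. Depth limits the fold changes of mt-Atp8, Cox4i2 and Ndufa4l2 where a group held few counts. Of the fold changes of single genes, 801 kept their side of the threshold and their direction, 97 lost and 10 gained a call, and none reversed. With gel as a replicate block the number of genes changed was 44 instead of 34 in co-cultured NFs, 34 instead of 33 for tumor cells against NFs in co-culture and 3 instead of 2 between subsets, and no call on a named gene changed.

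By DESeq2 with an absolute log2 fold change above 2, the members called numbered 1 instead of 25 for tumor cells against NFs alone, 4 instead of 33 in co-culture, 0 instead of 2 between subsets, 6 instead of 34 in co-cultured NFs, 0 instead of 4 in co-cultured tumor cells and 1 instead of 10 in the interaction. With no filter on low counts they numbered 1 between subsets and 8 in co-cultured tumor cells, where DESeq2 gave 1, and the fits without a replicate block (no line term) and of all 10 libraries gave 0. For co-cultured tumor cells, single libraries were left out of this last fit, which has no line term. Its count was thus 0 before any library was left out. Leaving out 1 library or gel gave 14 to 24, 18 to 36, 0 to 7, 20 to 31, 0 to 0 and 6 to 9 members in the same order of comparisons, with fewer libraries tested.

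The median of mitochondrial genes for tumor cells against NFs in co-culture was 0.966 by RLE scaling, 0.967 by DESeq2 and 0.988 to 1.140 without single libraries. That of nuclear genes in the interaction was 0.115, 0.163 with no filter and 0.116, and 0.039 to 0.281. Without single libraries the nuclear median for tumor cells against NFs alone was -0.164 to 0.089, so its sign depended on 1 library. That in co-cultured tumor cells was -0.151 to 0.045, from fits of 6 groups without a line term. These fits set 1 line against both lines, so the range mixes the library left out with the line. The mitochondrial medians were -0.589 to -0.455 for tumor cells against NFs alone, -1.884 to -1.448 in co-cultured NFs, 1.507 to 1.735 in the interaction, -0.342 to -0.099 in co-cultured tumor cells and 0.018 to 0.163 between subsets. The last 2 ranges reach more than 1.5 times from the reported medians. The range in co-cultured tumor cells again came from the fits without a line term, and mixes the library left out with the line. The cause of these departures was not tested.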
